A study of Mus musculus with 8 samples.

Results

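S100A proteins are small calcium sensors of the EF-hand type. The 8 genes described here are S100a1, S100a4, S100a6, S100a10, S100a11, S100a13, S100a14 and S100a16, which are family members other than the calprotectin subunits S100a8 and S100a9. They were found by their symbol among the 23420 named genes of a comparison of mouse corneal button with limbal rim, and all 8 had reads in both tissues. The corneal button is the cornea inside the limbus, and the limbal rim is the border with the conjunctiva and sclera, where the epithelial stem cells of the cornea reside. Both came from young adult wild type C57BL/6J mice, with no treatment or other allele in the labels, and the dissected pieces of many eyes were pooled by tissue before total RNA was sequenced. The labels list 8 samples, 4 per tissue, but the values of the table are built from 2 libraries, 1 per tissue. Differences therefore have no replicate check and no test was made.

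Most S100A proteins act as dimers. Calcium opens a surface on the dimer that takes up a target, often an annexin, a myosin or another protein at the membrane or cytoskeleton. S100A10 is the exception, since it holds the open shape without calcium and sits in a complex with annexin A2. In epithelia such as that of the cornea, several members are among the abundant cytoplasmic proteins, and some are also secreted and act on receptors such as the one encoded by Ager.

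Named genes took 26104317 reads in the corneal library and 21182025 in the limbal one. Read numbers of each gene were worked back from the deposited table. The mean normalized signal over both libraries allows between 8 and 2499 pairs of read numbers per member, and the pair was chosen by the deposited log2 fold change and its standard error, so the ratios of all 8 members rest on those columns too. They were divided by size factors, 1.03 (cornea) and 0.967 (limbus), and a log2 ratio is limbus over cornea of these normalized reads. The 95% intervals are exact Clopper-Pearson intervals. No use of molecular identifiers is given in the sources used here, and reads that are PCR copies are not independent, so these intervals stand for counting error alone. "Beyond counting error" means here that the interval of the log2 ratio leaves out 0. It does not say that a second pool of eyes would differ in the same way. In bulk tissue, fewer cells of a type and less RNA per cell cannot be told apart.

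The tissues themselves differed in their cell type genes. All 4 corneal epithelial genes (Krt12, Krt5, Aldh3a1, Tkt) were higher in the cornea, and all 5 of the limbal and conjunctival epithelium (Krt15, Krt19, Krt13, Krt4, Krt8) were higher in the limbus. Krt12, the cornea-specific keratin, had 1137735 corneal and 233324 limbal reads, so reads of this marker were also plentiful in the limbal rim. The fibroblast, skeletal muscle, Schwann cell, leukocyte, vascular endothelial and melanocyte lists were higher in the limbus for 26 of 27 genes with over 3 reads in both libraries, the exception being Pdgfra of the fibroblast list. Of the keratocyte list, Kera and Aldh1a1 were higher in the cornea, Ptgds was higher in the limbus and Lum had a log2 ratio of -0.01 (95% CI -0.06 to 0.03). The part of these cell types in the results below was not tested.

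The 8 genes lie on mouse chromosome 3 in GRCm38, 6 of them in the S100 cluster. S100a1 runs from 90511034 to 90514392 on the minus strand, and the others are on the plus strand. S100a13 covers 90514435 to 90524581, S100a14 90526856 to 90528837, S100a16 90537254 to 90543151, S100a4 90603771 to 90606045 and S100a6 90612882 to 90624181. S100a11 (93520488 to 93526287) and S100a10 (93555080 to 93564643) are a separate pair, 2824766 bases beyond S100a9. S100a1 and S100a13 face away from each other, with 42 bases between their annotated starts. The sequence between the starts is shown because the 2 genes share it and their ratios are compared below. It is chr3:90514393-90514434, plus strand of GRCm38.
Between S100a1 and S100a13: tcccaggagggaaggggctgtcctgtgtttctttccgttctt

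The upstream sequences of S100a4, S100a11 and S100a6 are shown next, as those of the member with the largest ratio in favor of the limbus and of the 2 members with the most reads among those higher in the limbus. They come from RefSeq (GRCm38.p6), 5′ to 3′ on the plus strand, and end before the first annotated exon. Capitals mark matches, on either strand, to 5 searched motifs. They are the AP-1 motif, spelled TGANTCA, the core of the TATA box, spelled TATAAA, the GC box, spelled GGGCGG, and those that are named by their letters, the CACCC box and the inverted or direct CCAAT box. No motif overlaps another in the stretches shown.
S100a4, chr3:90603520-90603769: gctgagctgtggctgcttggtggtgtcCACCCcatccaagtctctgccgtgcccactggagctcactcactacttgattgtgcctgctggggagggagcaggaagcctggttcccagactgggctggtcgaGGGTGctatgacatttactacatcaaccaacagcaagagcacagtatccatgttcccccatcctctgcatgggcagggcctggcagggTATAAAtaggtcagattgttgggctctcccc
S100a11, chr3:93520246-93520487: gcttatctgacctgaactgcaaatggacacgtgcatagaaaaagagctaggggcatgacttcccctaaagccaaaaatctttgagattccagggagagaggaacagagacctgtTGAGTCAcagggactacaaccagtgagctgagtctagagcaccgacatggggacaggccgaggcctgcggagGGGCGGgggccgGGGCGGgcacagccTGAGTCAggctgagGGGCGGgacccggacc
S100a6, chr3:90612644-90612881: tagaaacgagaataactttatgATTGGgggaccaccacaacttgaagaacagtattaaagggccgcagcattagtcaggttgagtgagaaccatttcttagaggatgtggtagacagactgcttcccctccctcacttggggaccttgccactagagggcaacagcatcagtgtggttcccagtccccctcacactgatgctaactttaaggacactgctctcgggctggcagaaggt

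The S100a4 window held 1 TATA box core and 2 CACCC boxes, the S100a11 window 2 AP-1 motifs and 3 GC boxes, and the S100a6 window 1 CCAAT box on the minus strand. Over all 32851 RefSeq windows of 250 bases, 6.75% held the AP-1 motif, 12.4% the TATA box core, 32.7% the GC box, 52.0% the CACCC box and 33.8% the CCAAT box. Windows were given for 6 of the 8 members, and those of S100a10 and S100a14 were not analysed here. A match is a run of letters in these windows and was not tied to any factor.

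The limbus was the higher side for 5 members and the cornea for 3, each beyond counting error. The limbal group was S100a4, S100a13, S100a11, S100a6 and S100a1, and the corneal group S100a16, S100a14 and S100a10. Beyond counting error, 33.2% of all 13862 genes with over 3 reads in each library favored the limbus and 40.6% the cornea. Among the 7071 genes as abundant as the least abundant member, or more so, these shares were 28.8% and 53.9%. The median log2 ratio of the members was 0.35, beside -0.05 over all genes tested and -0.17 over those 7071 genes. Scaling to total reads, which shifts all log2 ratios by 0.21, put 7 members on the limbal and 1 on the corneal side beyond counting error. With that scaling, 45.1% of all tested genes favored the limbus and 29.7% the cornea beyond counting error. The share of tested genes with a ratio above 0 rose from 46.6% to 58.9%. Centring on the median of all genes left 5 limbal members and 1 corneal one beyond counting error. That centring puts 50% of tested genes above 0 by construction. A 2-fold difference toward the limbus was reached by S100a4 and S100a13, and by 15.5% of all genes tested. None of the 8 members reached it toward the cornea, where 8.99% of the genes did. As a sum, the 8 members took 0.887% (95% CI 0.883 to 0.890) of the reads on named genes in the cornea and 1.19% (1.18 to 1.19) in the limbus.

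**Figure D1:**
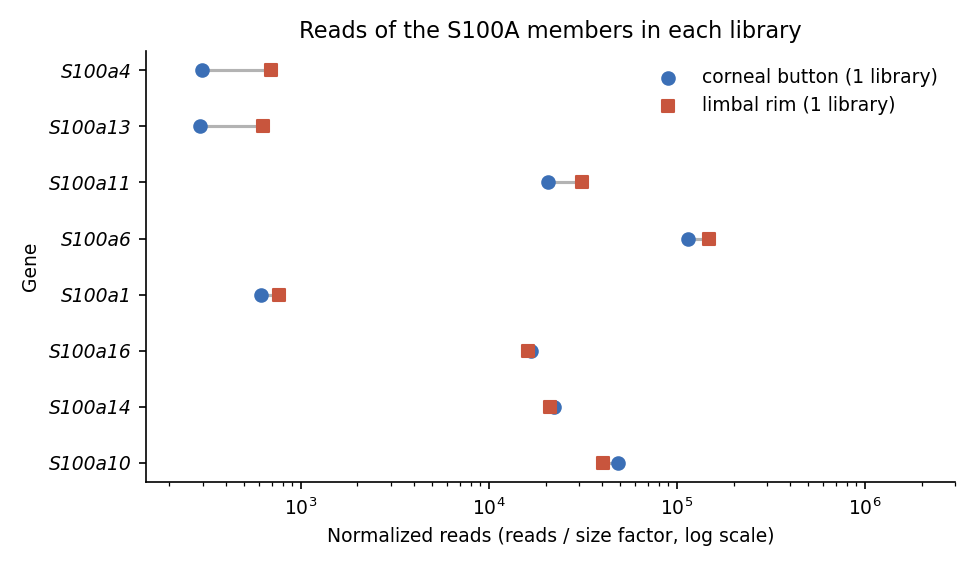
Normalized reads (reads divided by the size factor, log axis) of the 8 genes in the corneal button (blue circles) and limbal rim (red squares), 1 library each, with a line joining the values of a gene. S100a4 and S100a13 have the widest gaps and few reads, S100a6 has the most reads in both tissues, and the values of S100a14 and S100a16 lie almost on each other.

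S100A4 binds the tail of non-muscle myosin IIA and promotes cell motility, and its gene is widely used as a label of fibroblasts, although leukocytes also express it. S100a4 had 310 corneal and 669 limbal reads. This is 300 against 692 normalized reads, which is a log2 ratio of 1.21 (95% CI 1.01 to 1.40), or 2.31-fold more in the limbus. Fibroblast genes of the marker list summed to 14117 normalized reads (cornea) and 33603 (limbus), and leukocyte genes to 6530 and 11391, with none of the 10 genes at 0. Col1a1 alone made up 13326 and 31709 of the first sum and Itgam 5807 and 9090 of the second, and Pdgfra of the fibroblast list was higher in the cornea. Of the other leukocyte genes, Ptprc had 29.0 and 74.4 normalized reads and Csf1r 71.6 and 481. Lyz2 had 233 and 1080, and Cd68 had 389 and 666. The log2 ratio of Itgam, 0.65, was the lowest of the 5 leukocyte genes, so their sum mainly shows Itgam. Exons of S100a4 overlap those of Gm42674, a protein-coding model on the same strand, so reads there may have been counted for either gene.

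S100A13 lacks a secretion signal and takes part in the release of FGF1 and interleukin 1 alpha from cells. S100a13 had 301 corneal and 607 limbal reads. Its 291 and 627 normalized reads gave a log2 ratio of 1.11 (0.91 to 1.31). The ratio of S100a4 exceeded that of S100a13 by 0.10 on the log2 scale, with an interval from -0.18 to 0.38, so their order was not resolved. The next best pairs of read numbers, which missed the deposited values by far more, would give 2.04 for S100a4 and 1.98 for S100a13.

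S100A1 is the member known from striated muscle, where it acts on the calcium release channels and the calcium pump of the sarcoplasmic reticulum. S100a1 had 633 corneal and 741 limbal reads, a log2 ratio of 0.32 (0.17 to 0.48). The next best pair of read numbers, which missed the deposited values by 14543 times as much, would give -0.12. The 5 skeletal muscle genes summed to 77.4 normalized reads (cornea) and 9975 (limbus), and none was at 0. The log2 ratio of S100a13, which starts 42 bases away, was 0.78 higher (95% CI 0.53 to 1.04). This difference between genes does not depend on the scaling of the libraries.

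S100A6 (calcyclin) and S100A11 (calgizzarin) are abundant in epithelial cells and fibroblasts and bind annexins in a calcium-dependent way. S100a6 had 118412 corneal and 144049 limbal reads, a log2 ratio of 0.38 (0.37 to 0.39) or 1.30-fold more in the limbus. It held 51.2% of all reads of the 8 members in the cornea and 57.3% in the limbus. S100a11 had 21366 and 30318 reads, with a log2 ratio of 0.60 (0.58 to 0.63), or 1.52-fold. With the other 7 members summed and S100a6 left out, the log2 ratio was 0.02 (0.01 to 0.04), compared with 0.22 (0.21 to 0.22) for all 8. With size factors, most of the higher sum in the limbus was thus S100a6. The 0.02 sums members higher in the limbus, such as S100a11, with S100a10, S100a14 and S100a16, which were higher in the cornea. As shares of the reads on named genes, the 7 members without S100a6 took 0.433% in the cornea and 0.508% in the limbus. RefSeq lists a pseudogene of S100a11, and reads that match both may have been shared between them.

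S100A10 (p11) forms a heterotetramer with annexin A2 that organizes the membrane and binds plasminogen activator. S100a10 had 50073 corneal and 39219 limbal reads, that is 48439 and 40542 normalized reads. Its log2 ratio of -0.26 (-0.28 to -0.24), 1.19-fold more in the cornea, was the lowest of the 8. Scaled to total reads it was -0.05. S100a11, its neighbor on the chromosome, differed from it by 0.86 (0.83 to 0.89), and S100a6 by 0.64 (0.61 to 0.66), whatever the scaling. Together these 3 genes were the most abundant members in both tissues by level per length, and one of them was on the other side of 0 from the other two.

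S100A14 and S100A16 can bind each other and are both found in epithelia, though not necessarily there alone. S100a14 had 22995 corneal and 20362 limbal reads, a log2 ratio of -0.08 (-0.11 to -0.05). S100a16 had 17342 and 15637 reads, a log2 ratio of -0.05 (-0.08 to -0.02). They were higher in the cornea by 1.06-fold and 1.04-fold, and scaling to total reads put both on the limbal side, at 0.13 and 0.15. Centring on the median of all genes also put S100a16 there, at 0.00. Their ratios differed from each other by -0.03 (-0.07 to 0.02), an interval that leaves room for at most a very small difference in either direction.

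**Figure D2:**
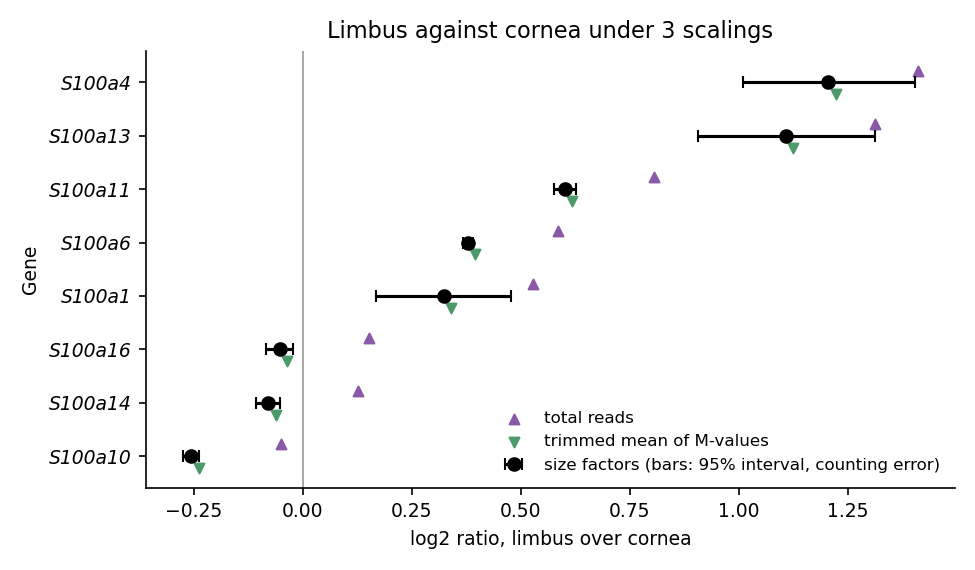
log2 ratio of limbus over cornea for each member after division by size factors (black points, with bars for the 95% interval of counting error), after scaling to total reads (purple triangles, shifted by 0.21) and after a trimmed mean of M-values (green triangles, shifted by 0.02). S100a4, S100a13, S100a11, S100a6 and S100a1 stay above 0 under all 3 scalings, and S100a14 and S100a16 change side under total reads.

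From the highest to the lowest ratio the order was S100a4, S100a13, S100a11, S100a6, S100a1, S100a16, S100a14 and S100a10. The intervals of 3 neighboring pairs overlapped, namely S100a4 with S100a13, S100a6 with S100a1, and S100a16 with S100a14. S100a4 and S100a6, with S100a5 between them on the chromosome, differed by 0.83 (0.63 to 1.02). The pair with the largest ratios was thus also the pair with the fewest reads, and the 3 corneal members had between 15637 and 50073 reads per library.

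Levels between genes were compared as reads per kb of annotated exon, scaled to the library's reads on named genes (RPKM). RPKM is scaled to total reads, so its ratio between tissues is higher by 0.21 on the log2 scale than the ratios above. S100a6 had the highest level of the 8, 3318 (cornea) and 4975 (limbus), which placed it 10th and 7th among all genes. S100a11 reached 1602 and 2801, and S100a10 reached 1583 and 1528. S100a14 (510 and 557) and S100a16 (411 and 457) came next, and both were among the 103 highest genes in either tissue. S100a1 (34.9 and 50.4), S100a4 (20.3 and 54.1) and S100a13 (16.1 and 40.1) were far lower. In the cornea the last 3 stood in the order S100a1, S100a4, S100a13, while in the limbus the level of S100a4 was above that of S100a1 by less than their counting error, with intervals of 50.1 to 58.3 and 46.8 to 54.2.

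The level depends on the exons counted as the gene's length. With the length of transcripts that have a RefSeq mRNA record, S100a6 rose to 6205 and 9303, S100a10 to 2800 and 2703, and S100a14 to 892 and 974. In the limbus S100a4 then stood at 63.4 and S100a1 at 51.7, further apart than on the full exon length. On that length S100a10 stood above S100a11 in the cornea and just below it in the limbus, while on the full exon length the 2 were about equal in the cornea.

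Of the 9 other S100 genes on the list, 8 were in the table and 5 had over 3 reads in both libraries. Of these 5, 3 favored the limbus, 1 the cornea and 1 neither side beyond counting error. Over all tested genes, 33.2% favored the limbus and 40.6% the cornea. S100a3, known from the hair cuticle, had 517 corneal and 1357 limbal reads, a log2 ratio of 1.49 (1.34 to 1.64), which was 0.28 (0.04 to 0.53) above S100a4. S100a2, which was added with its values already known, had 72 and 130 reads at a log2 ratio of 0.95 (0.52 to 1.38). S100a7a, a relative of human psoriasin, went the other way, with 1608 corneal and 193 limbal reads, a log2 ratio of -2.96 (-3.19 to -2.75). That is 7.80-fold more in the cornea, a wider difference than that of any of the 8 members.

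The calprotectin genes S100a8 and S100a9 encode subunits of 1 complex of neutrophils and stressed epithelia, and their log2 ratios differed by 1.98 (1.08 to 2.88). S100a8 rested on 13 corneal and 45 limbal reads, a log2 ratio of 1.89 (0.97 to 2.90), and S100a9 had 850 and 745 reads, with a log2 ratio of -0.09 (-0.24 to 0.05). S100b, a gene of Schwann cells and other glia, had 6 corneal and 99 limbal reads, a log2 ratio of 4.14 (2.97 to 5.62). The 5 Schwann cell genes summed to 4253 and 7028 normalized reads, with Mbp taking most of the sum, and Sox10 had 2 corneal and 115 limbal reads. Melanocyte genes also summed to more in the limbus, with 306 (cornea) and 1644 (limbus) normalized reads. Which cells gave the S100b reads was not tested. S100a5 had 0 reads in both tissues, S100g 0 and 1, and S100z 6 and 2. Of the fused type of S100 gene, which encodes proteins of the cornified envelope, Tchh had 51 corneal and 153 limbal reads and Crnn 24 and 9. Flg2 and Hrnr had 0 reads in both, which at this depth does not show that the genes are silent.

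Within the cluster, some neighboring genes had similar ratios and others did not. S100a14 and S100a16 lay near 0 between S100a13 on one side and S100a3, S100a2 and S100a4 on the other, all of which were higher in the limbus. Beyond S100a6 the ratio went from -2.96 for S100a7a to 1.89 for S100a8 over the next genes. Of 6 other genes within 100 kb of the cluster, 5 had over 3 reads in both libraries. Among these, 1 favored the limbus, 2 the cornea and 2 neither side, beside 33.2% (limbus) and 40.6% (cornea) of all tested genes. The most limbal of these 5 was Pglyrp4 at 0.21 (0.11 to 0.31), and the least was Chtop at -0.57 (-0.64 to -0.49). The sixth, Npr1, had 3 corneal and 167 limbal reads.

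**Figure D3:**
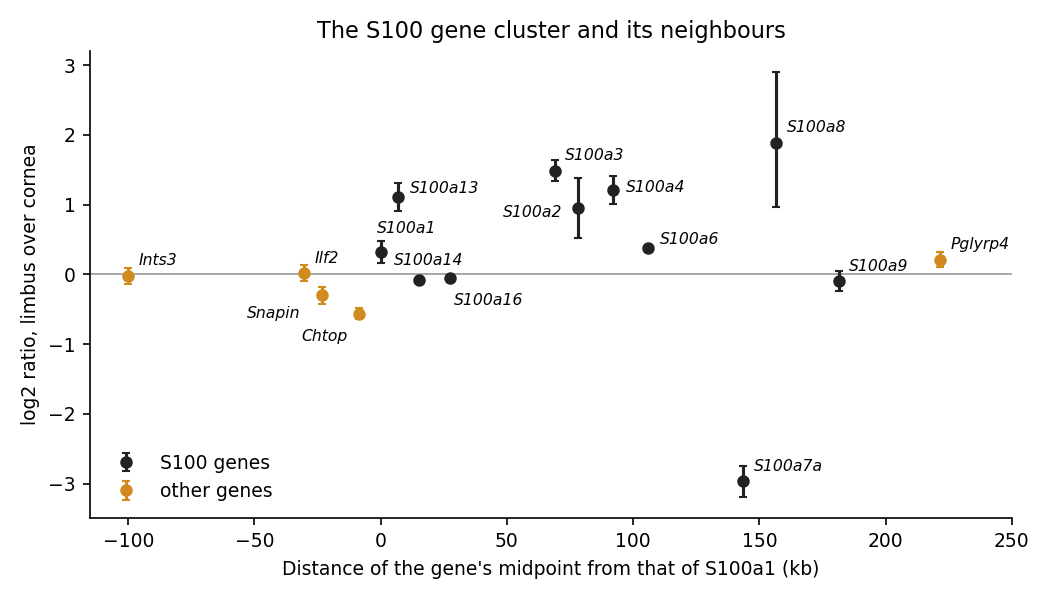
log2 ratio of limbus over cornea (bars: 95% interval, counting error) against the distance in kb of the gene's midpoint from that of S100a1, for S100 genes (black) and other genes within 100 kb (orange) that had over 3 reads in both libraries. S100a7a at -2.96 and S100a8 at 1.89 lie close together, and S100a10 and S100a11 are outside the stretch shown.

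Genes of the proteins that S100A proteins bind were taken as a list of 26, of which 22 had over 3 reads in both libraries. Of these, 12 favored the limbus, 9 the cornea and 1 (Ryr2) neither side, with a median log2 ratio of 0.13. The shares over all tested genes were 33.2% (limbus) and 40.6% (cornea).

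Among the annexins, Anxa2, the partner of S100A10, had 95946 corneal and 111081 limbal reads, a log2 ratio of 0.31 (0.29 to 0.32). This was 0.56 (0.54 to 0.59) above that of S100a10, so the 2 genes of the complex had different ratios, whatever the scaling. Ahnak, a giant scaffold protein that binds the same complex, had a log2 ratio of -0.13 (-0.15 to -0.11), 0.13 (0.10 to 0.16) above that of S100a10. Anxa1, which binds S100A11, stood at 0.13 (0.11 to 0.15) and Anxa11, which binds S100A6, at 0.47 (0.41 to 0.53). Anxa5 stood at 0.13 (0.08 to 0.19) and Anxa6 at -0.36 (-0.46 to -0.27). Scaling to total reads moved Ahnak to the limbal side, by the shift of 0.21.

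Cacybp encodes the calcyclin-binding protein, an adaptor in the degradation of beta-catenin that is named after S100A6. It had 2435 corneal and 1139 limbal reads, a log2 ratio of -1.0 (-1.10 to -0.90), which was 1.38 (1.28 to 1.48) below that of S100a6. Sugt1, a co-chaperone that also binds S100A6, stood at -0.53 (-0.64 to -0.41). Cacybp and Sugt1 were therefore on the corneal side while S100a6 was on the limbal side. Anxa11, given above as binding S100A6 too, was on the limbal side, at 0.47 (0.41 to 0.53).

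The S100A4 targets differed little between the tissues. Myh9, the heavy chain of non-muscle myosin IIA, had 9354 and 8382 reads, with a log2 ratio of -0.06 (-0.11 to -0.02), and Ppfibp1 had 4572 and 4471 reads, with a log2 ratio of 0.06 (0.00 to 0.12). Scaled to total reads, Myh9 was on the limbal side too. For S100A13, the cargo genes went in opposite directions. Fgf1 had 103 corneal and 214 limbal reads (log2 ratio 1.15, 0.81 to 1.5), and Il1a had 1913 and 665 (-1.43, -1.56 to -1.30). Syt1, a vesicle protein of the release complex of FGF1, rested on 9 and 53 reads.

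Of the S100A1 targets, the ryanodine receptor genes Ryr1 (30 and 165 reads) and Ryr3 (10 and 65) were higher in the limbus with log2 ratios of 2.56 and 2.80, beside the skeletal muscle genes given above. Atp2a2, the calcium pump of the endoplasmic reticulum, was higher in the cornea, with a log2 ratio of -0.53 (-0.59 to -0.48). Of the channels whose transport to the membrane involves S100A10, Trpv6, an epithelial calcium channel, had 19 corneal and 403 limbal reads, a log2 ratio of 4.50 (3.84 to 5.25), the largest of the list. Trpv5 (1 and 10 reads) and Kcnk3 (1 and 12 reads) were barely detected. Plat, the tissue plasminogen activator, had 750 and 1152 reads, with a log2 ratio of 0.71 (0.58 to 0.85).

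Of the receptors for secreted S100 proteins, Ager had 10 corneal and 31 limbal reads (log2 ratio 1.73, 0.66 to 2.92), and Tlr4 had 688 and 438 (-0.56, -0.73 to -0.38). The remaining genes of the partner list are not counted among these receptors. Hltf, with 1103 and 520 reads, stood at -0.99 (-1.14 to -0.84), and Htr1b and Plg had 0 reads in both libraries.

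**Figure D4:**
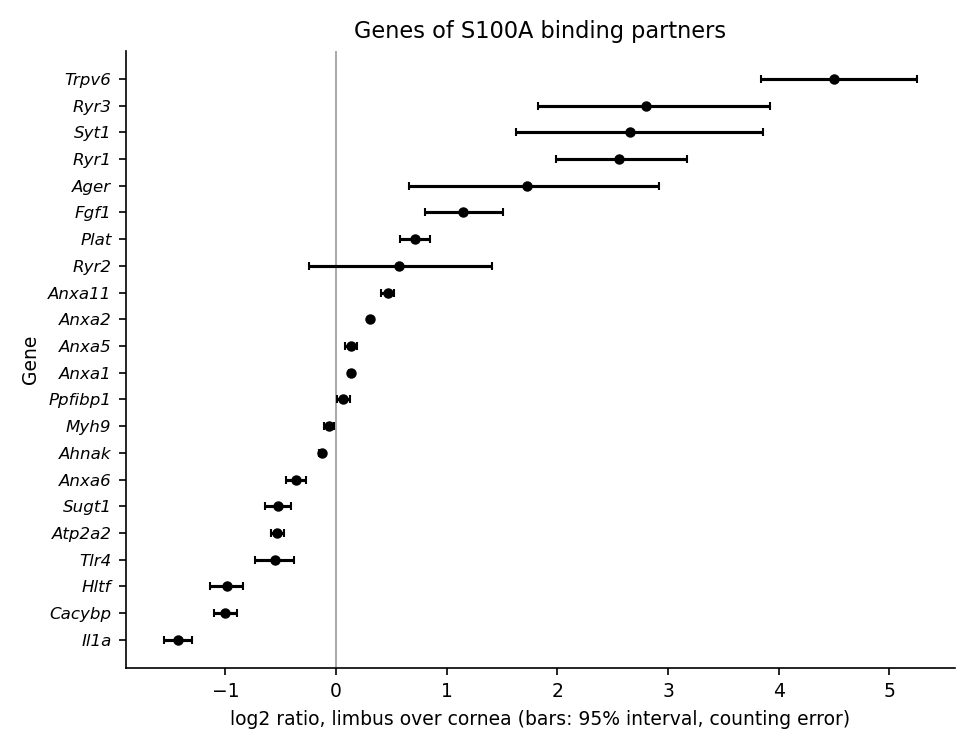
log2 ratio of limbus over cornea for the 22 genes of S100A binding partners with over 3 reads in both libraries, with bars for the 95% interval of counting error. Genes with wide bars, such as Syt1, Ryr3 and Ager, rest on few reads, and the annexins other than Anxa6 lie between 0.13 and 0.47.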

How the data were processed

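The authors used CLC Genomics Workbench 20 to trim adaptors and to map to GRCm38 (mm10), and normalized by the trimmed mean of M-values. They deposited 1 table, laid out like one from a differential expression program, with a mean normalized signal per gene. The authors' deposited log2 fold changes, their standard errors, p-values and adjusted p-values are their own comparison and are not reported.

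Each deposited signal is the mean of 2 libraries and moves in steps of single reads, with 109 corneal reads equal to 102 limbal ones. Of 17442 genes whose mean exceeds 0, 6143 have a mean that 1 pair of read numbers gives. For the other 11299 the deposited log2 fold change and standard error, both shrunken, were used to choose the pair, and all genes were met to within 0.001 in sum. The next best pair of each member missed by at least 92.4 times as much. Read numbers are therefore derived values. Rows without a gene name (17484 of 40904) were left out. Gene symbols were used, since the accession beside a symbol belonged to that gene for 2 of 18556 genes. The depth is 26104317 reads on named genes for the cornea and 21182025 for the limbus. Whether counting used strand is not given in the sources used here.

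Positions and exon lengths are from GENCODE M21. Ratios need over 3 reads in both libraries. Intervals are exact, except that differences between genes have approximate intervals on the log scale. Alternatives were scaling to total reads, a trimmed mean of M-values (30% and 5% trimmed), median centring, a pseudocount of 1, filters on reads, the next best pair, and other gene lengths, of which the RefSeq length and the abundance-matched background were added after the data were seen. The decoding and ratios were tested on simulated data. Those were made by the model that decodes them, so the test cannot show that this model holds for the deposited values. The 8 members and all gene lists were chosen with earlier results of these data known. Named were the members, all list genes and marker genes with the most reads, and other marker genes were chosen after their values were seen. Of the neighbors within 100 kb, the most and least limbal with a ratio were named, and Npr1, which has only a bound. Python 3.11.15, numpy 2.4.6, scipy 1.17.1 and pandas 2.3.3 were used.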

Additional observations from a re-analysis of the deposited data

How the results depend on the processing

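With scaling to total reads, all log2 ratios were higher by 0.21, which moved the share of tested genes with a ratio above 0 from 46.6% to 58.9%. Beyond counting error, 45.1% of tested genes then favored the limbus and 29.7% the cornea. The members' median became 0.56, S100a14 (0.13) and S100a16 (0.15) turned to the limbus, and 1 member was left higher in the cornea. The other S100 and S100-fused genes then had 1 on the corneal side and the keratocyte list 2 on the limbal side. Median centring gave 0.41 for the members' median, 1 member higher in the cornea, and S100a16 at 0.00105. With the next best pair of reads the median was 0.17, S100a1 reversed to -0.12, and S100a4 and S100a13 moved to 2.04 and 1.98. A minimum of 10 reads in both libraries left 1 other S100 or S100-fused gene higher in the cornea. The trimmed mean of M-values, the pseudocount of 1 and leaving out S100a4 for its exon overlap changed no direction of a member.

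No paired analysis was possible because the values come from 1 library per tissue, and the numbers L001 to L004 of the labels have no columns of their own. For the same reason leaving out a library was not run. Depth limits S100a8, S100b, Ager and Syt1, which have few corneal reads and wide intervals.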
